A study of Arabidopsis thaliana with 9 samples.

Results

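The genes described here encode the plastid methylerythritol phosphate (MEP) pathway and the enzyme that uses its products next in Arabidopsis thaliana. They were chosen by locus code for their place in the pathway, with earlier results of these data known, and no measured value entered the rule: DXS1 (AT4G15560), DXR (AT5G62790), MCT (AT2G02500), CMK (AT2G26930), MDS (AT1G63970), HDS (AT5G60600), HDR (AT4G34350) and GGPPS11 (AT4G36810). All 8 were among the 17680 genes measured, and all 8 were among the 17299 genes with a level of at least 10 in 1 or more groups, which are called the genes tested. Steady state mRNA was measured by 3′-end RNA-seq in whole wild-type seedlings of the Columbia-0 (Col-0) accession, with 3 libraries in each of 3 groups. D seedlings were kept for 2 days at 21 °C in true darkness. Their seeds, like those of R1h, had first been given 3 h of white light so that they would germinate, and then a 5 min pulse of far-red light, which switches phytochromes to their inactive form. R1h seedlings had 47 h of the same darkness and then red light of 10 µE for the last 1 h. WLc seedlings were grown for 2 days under continuous white light of 100 µE (both per square meter and second). All groups were plated without sucrose and kept for 4 days at 4 °C before growth.

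Plants make the 5-carbon building blocks of isoprenoids, isopentenyl diphosphate (IPP) and dimethylallyl diphosphate (DMAPP), along separate routes in the plastid and in the cytosol. The plastid MEP pathway starts from pyruvate and glyceraldehyde 3-phosphate, and its products become carotenoids, the phytyl tail of chlorophyll and tocopherols, the side chain of plastoquinone, and gibberellins. Seedlings that turn green need carotenoids and chlorophyll together, and the first enzyme of the pathway, DXS, is widely regarded as its main control point.

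Each level below is the authors' value for a whole group in pseudo-counts, which are read counts adjusted to a common library size. The table holds 1 value per group and none per library, so no difference below has a replicate check, an SD or a test, and the spread between plants is unknown. Since a group value averages 3 libraries, each pseudo-count rested on about 3 sequenced reads. Brackets give 95% intervals (exact conditional binomial, Clopper-Pearson) that cover counting error only. At a level of 50 such an interval reached 0.34 on the log2 scale to either side, and at 2000 it reached 0.05. Differences are of log2(level + 1), their intervals are those of the log2 ratio of levels, and a gene counts as called higher or lower from a 2-fold difference upward. Levels are compared between genes because reads were counted over a window of the last 500 bases whatever the transcript length. The longest annotated transcripts of the 8 genes were 994 to 3007 bases long. Of the 50-base stretches in their windows, 100% occurred in no other gene's longest transcript. This annotation is of assembly TAIR10.1 and the authors counted on TAIR9 transcripts, so the windows counted may differ. How fully a window captured the reads of its gene was not checked. The intervals do not cover this when levels of different genes are compared.

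The columns summed to 11.44 M, 11.99 M and 12.51 M pseudo-counts in D, R1h and WLc, and the median difference of all genes tested was 0.003 in R1h against D and 0.02 in WLc against D. Scaling on 8 reference genes (ACT2, UBQ10, PP2AA3, UBC21, TIP41L, SAND, GAPC1 and YLS8) moved these medians by −0.156 and 0.27, and that of WLc against R1h by 0.42. Scaling to equal totals moved the WLc against D median by −0.131. The seedling label was checked on 9 markers. CAB2, a light-harvesting antenna gene, was at 301, 5767 and 131100 in D, R1h and WLc, and the protochlorophyllide reductase gene PORA, typical of dark-grown cotyledons, was at 16980, 20770 and 73.4. The root markers CASP1 and PYK10 were present in all groups and lowest in WLc, at 953 and 9189, as were the seed reserve gene CRA1 at 97.1 and ICL, an enzyme of seed oil use, at 5087. In WLc against D the 3 green tissue markers were called higher and the 6 others lower, although RBCS1A (1.75) was not called with quantile normalization (0.71). The groups thus differed in organ and stage markers as well as in light, and the part of this in the values of the pathway was not tested. In whole seedlings, fewer cells of a type and less RNA per cell cannot be told apart.

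In D the pathway had a steep order of levels. DXS1, which joins pyruvate and glyceraldehyde 3-phosphate into 1-deoxy-D-xylulose 5-phosphate, was highest at 2387, above 95.5% of all genes. GGPPS11, the main plastid synthase of geranylgeranyl diphosphate (GGPP), followed at 1255. HDR at 591, DXR at 552 and HDS at 534 came next, and the intervals of neighbors in that order overlapped. MDS stood below them at 381. CMK at 55.4 and MCT at 49.0, the kinase and the cytidyl transferase of the middle steps, were lowest, with overlapping intervals. The DXS1 level was thus 48.7 times that of MCT and 43.1 times that of CMK, while all but these 2 genes lay at or above 76.3% of the genes measured.

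The same arrangement held in R1h and was altered in WLc. In R1h, DXS1 and GGPPS11 again came first, DXR, HDR and HDS formed a group of overlapping neighbors, and MCT and CMK were last. In WLc, HDR moved to the second place at 1911, and MDS at 1465 equaled GGPPS11 at 1457 within counting error. HDS at 1338 and DXR at 1108 came after them. MCT and CMK were again lowest, at 88.9 and 93.2. The ratio of DXS1 to MCT was 48.7 in D, 48.2 in R1h and 55.2 in WLc.

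**Figure D1:**
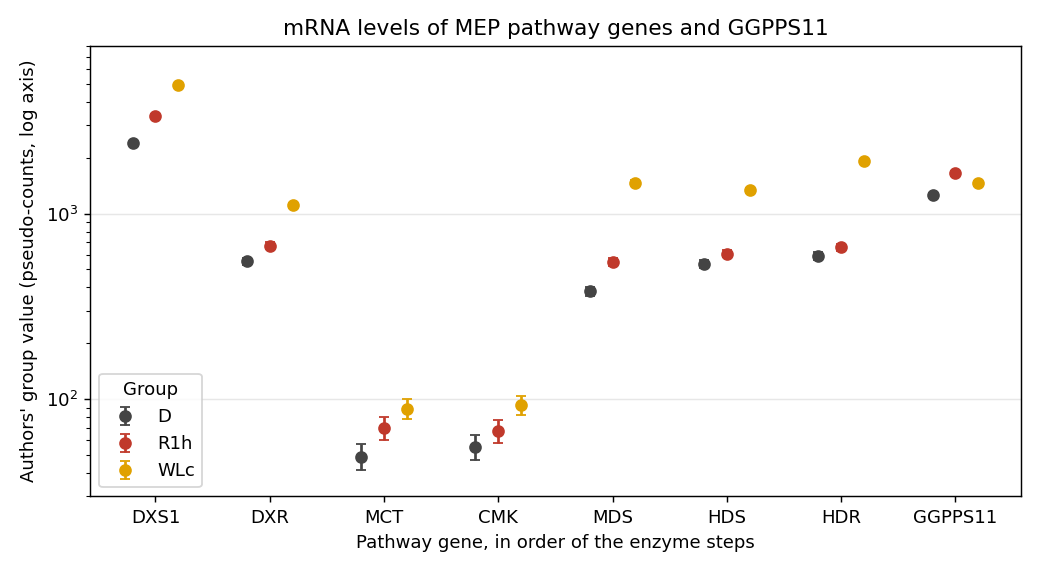
Authors' group value of each gene in pseudo-counts (log axis) in D, R1h and WLc, with the genes in the order of the enzyme steps and bars for the 95% counting interval, which is hidden by the point at high levels. For the enzymes from DXS1 to HDR the WLc point is the highest, DXS1 reaching 4907, whereas GGPPS11 is highest in R1h at 1644, an order that quantile normalization and reference gene scaling turned.

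The entry into the pathway was higher in both lights than in D. DXS1 was at 2387 [2332, 2443] in D, 3353 [3288, 3419] in R1h and 4907 [4828, 4986] in WLc, so that no intervals overlapped. The R1h level was 1.40-fold and the WLc level 2.05-fold that of D, which are log2 differences of 0.49 [0.45, 0.53] and 1.04 [1.00, 1.08]. DXR, the reductoisomerase that makes MEP in the first step committed to the pathway, was at 552, 673 and 1108 in D, R1h and WLc. Its differences from D were 0.28 [0.19, 0.38] in R1h and 1.00 [0.92, 1.09] in WLc. Both genes lay so near the 2-fold limit in WLc that scaling the columns to equal totals put them under it, at 0.91 for DXS1 and 0.88 for DXR.

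MCT and CMK, which attach a cytidine group to MEP and then phosphorylate it, had the fewest reads. MCT was at 49.0 [41.5, 57.6] in D, 69.6 [60.6, 79.7] in R1h and 88.9 [78.6, 100.0] in WLc. CMK was at 55.4 [47.3, 64.4], 67.1 [58.1, 76.9] and 93.2 [82.6, 104.5]. Both were higher in WLc than in D beyond counting error, by 0.85 [0.56, 1.16] and 0.74 [0.47, 1.03], and neither reached 2-fold except with reference gene scaling (1.11 and 1.01). In R1h the difference of MCT from D was 0.50 [0.20, 0.82], whereas that of CMK was 0.27 with an interval that included 0 [−0.03, 0.58]. An R1h difference in CMK was therefore not detectable at this depth.

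The enzymes of the last steps were most different between WLc and D. MDS, which closes the ring of methylerythritol cyclodiphosphate, was at 381 [360, 404] in D, 548 [522, 575] in R1h and 1465 [1422, 1508] in WLc. HDS, an iron-sulfur enzyme that opens this ring, was at 534 [508, 561], 609 [582, 638] and 1338 [1298, 1380]. HDR, the iron-sulfur enzyme that releases both IPP and DMAPP, was at 591 [564, 619], 659 [631, 689] and 1911 [1863, 1961]. For MDS each group stood apart from the others. For HDS and HDR the D and R1h levels lay close together and WLc stood far above both. The WLc levels were 3.84-fold, 2.50-fold and 3.23-fold those of D, with log2 differences of 1.94 [1.85, 2.04] in MDS, 1.32 [1.24, 1.41] in HDS and 1.69 [1.62, 1.77] in HDR. These 3 intervals did not overlap each other or those of DXS1 and DXR.

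GGPPS11 differed from the 7 enzymes before it. Its level was 1255 [1216, 1296] in D, 1644 [1599, 1691] in R1h and 1457 [1414, 1500] in WLc, so that R1h was highest. The difference from D was 0.39 [0.33, 0.45] in R1h and 0.21 [0.15, 0.28] in WLc. WLc was lower than R1h, by −0.17 [−0.23, −0.12], a direction that turned with quantile normalization (0.04) and reference gene scaling (0.25). The 8 genes together held 5805 pseudo-counts in D, 7623 in R1h and 12370 in WLc, of which GGPPS11 made up 21.6%, 21.6% and 11.8%. The share of DXS1 moved less, at 41.1%, 44.0% and 39.7%.

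The comparison of R1h with D asked what the first hour of light did after growth in darkness. None of the 8 genes was called, where 3.89% of the genes tested were called higher and 2.46% lower. All 8 were above 0, from 0.16 in HDR to 0.52 in MDS, with HDR at −0.002 under reference gene scaling and the other 7 above 0 under each scaling tried. Their median was 0.34, beside 0.003 over all genes tested, of which 50.4% were above 0. Differences of this size were not particular to the pathway. Of the 8 reference genes, 6 were above 0 and 2 below, with a median of 0.106. Among them, UBQ10 at 0.516 and GAPC1 at 0.513 lay between DXS1 and MDS. MDS, MCT and DXS1 exceeded 89.4%, 88.6% and 88.4% of the genes tested, and HDS and HDR exceeded 69.3% and 66.1%.

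In WLc against D, which compares growth in light throughout with growth in darkness, 5 of the 8 genes were called higher: DXS1, DXR, MDS, HDS and HDR. Over all genes tested, 13.9% were called higher and 10.7% lower. None of the 8 was called lower, and all were above 0. The median was 1.02 against 0.02 over all genes tested. MDS exceeded 94.7% of the genes tested, HDR 93.4% and HDS 90.2%, whereas GGPPS11 exceeded 60.8%. For MDS, HDS and HDR the whole counting interval lay beyond 2-fold, and these 3 were called under every scaling. The R1h and WLc differences share the D value, so a D level that is too low or too high would move both.

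**Figure D2:**
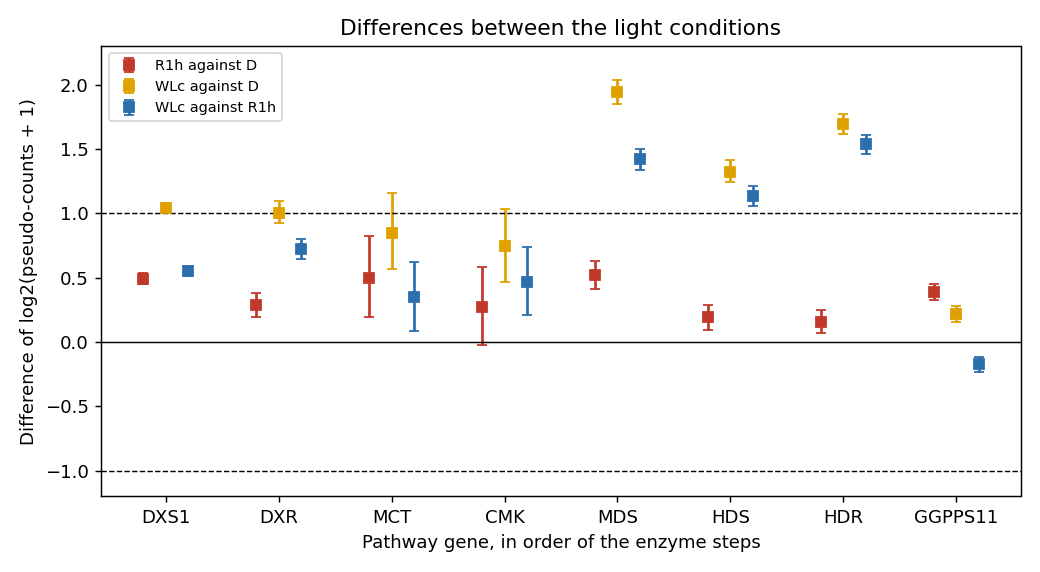
Difference of log2(pseudo-counts + 1) for each gene in R1h against D, WLc against D and WLc against R1h, with 95% counting intervals and dashed lines at 2-fold. No R1h difference reaches the 2-fold line, while MDS, HDS and HDR lie wholly above it in WLc against D at 1.94, 1.32 and 1.69.

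WLc and R1h were also set against each other. MDS, HDS and HDR were called higher in WLc, by 1.42, 1.13 and 1.53, with intervals of the ratio of levels of [2.53, 2.83], [2.08, 2.32] and [2.75, 3.05], where 12.0% of the genes tested were called higher and 10.0% lower. The differences in DXS1, DXR, MCT and CMK were 0.55, 0.72, 0.35 and 0.47, all under 2-fold, although DXR passed it with reference gene scaling (1.15). The share of the distance from the D to the WLc level that was present in R1h was also computed. R1h and WLc differ in the color, strength and duration of light and in the dark growth before it. The shares therefore compare levels and do not place a gene on a time course. On the deposited scale it was 38.3% (SE 1.6, counting error) in DXS1, 21.6% (SE 3.4) in DXR, 15.4% (SE 1.6) in MDS, 9.35% (SE 2.3) in HDS and 5.18% (SE 1.5) in HDR. In MCT and CMK it was 51.5% and 31.0% with an SE of 15, too wide to place either of them against DXS1 or DXR. These shares depended on the scaling. Recomputed after seeing the data with reference gene scaling, they were 17.5% in DXS1, 6.40% in DXR, 7.91% in MDS, 1.07% in HDS and −0.0381% in HDR, so that DXR came below MDS. With quantile normalization they were 25.1%, 14.7%, 11.7%, 5.86% and 3.33%. Among these 5 genes DXS1 had the highest share and HDR the lowest under each of the scalings tried. MCT, which is not one of the 5, had a higher share than DXS1 under each of them, at 22.9% with reference gene scaling and 59.4% with quantile normalization. CMK exceeded DXS1 with quantile normalization only (35.1%). GGPPS11, whose WLc level lay near that of D, had a share of 193% (SE 26) on the deposited scale. It was 409% with equal totals, 88.8% with quantile normalization and 43.6% with reference gene scaling, so it was unstable but above DXS1 each time. DXS1 is therefore not shown to have the highest share of the pathway.

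The genes were compared by the pair of differences from D that each showed. Euclidean distances between DXS1, DXR, MCT and CMK were 0.19 to 0.37 in log2 units, and the counting intervals of MCT and CMK are too wide to order these pairs. The farthest pairs were GGPPS11 with MDS (1.7) and with HDR (1.5). Among 9549 genes with a mean level of at least 100, the gene nearest to DXS1 was Z-ISO (AT1G10830), a carotene isomerase, at 124, 175 and 257 in D, R1h and WLc and a distance of 0.0015. ADSS (0.017), AT1G30680 (0.018), MSL10 and MBD11 (0.019 each) came next. The genes nearest to GGPPS11 were AT1G73940 (0.0067), AT2G43460 (0.012), PKT4 (0.014), AT5G46730 (0.017) and AT5G67220 (0.018). These distances are smaller than the counting errors of the genes compared and rest on 3 groups, so the order among near genes is a description of these values only.

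**Figure D3:**
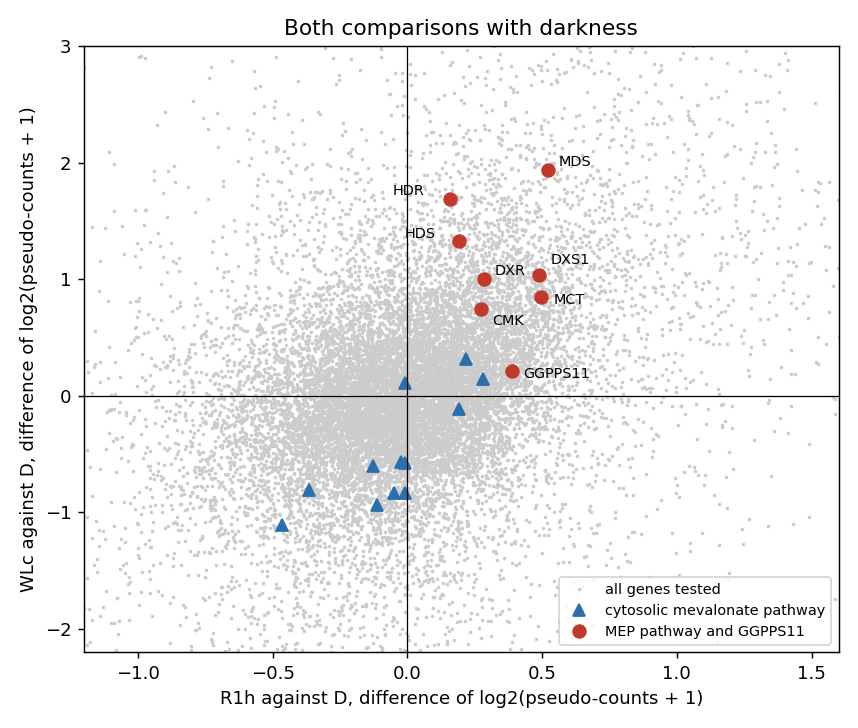
Each gene tested (gray) by its R1h against D and WLc against D differences of log2(pseudo-counts + 1), with the 8 pathway genes as red circles and the cytosolic mevalonate pathway as blue triangles. The red circles all lie above 0 on both axes (HDR in R1h was at −0.002 with reference gene scaling), from 0.21 to 1.94 in WLc, while 9 of 12 triangles lie below 0 on the WLc axis; 1288 genes fall outside the axes.

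The genes around the pathway were described in lists. Of the relatives of DXS1, DXS3 (AT5G11380), whose role is not settled, was at 90.6, 97.0 and 128 in D, R1h and WLc, a difference of 0.49 [0.27, 0.73] in WLc, and DXS2 (AT3G21500) was not analysed here. Of 13 other genes for prenyl diphosphates, 7 were tested. None was called in R1h, beside 3.89% higher and 2.46% lower of the genes tested. In WLc against D, 2 were called higher, where 13.9% of the genes tested were called higher. The medians were 0.11 in R1h and 0.41 in WLc, and 5 of the 7 were above 0 in each. The genes called were GGPPS6 (AT3G14530), at 25.1, 32.5 and 71.1, and GGPPS1 (AT1G49530), at 4.61, 3.25 and 13.1, which missed 2-fold with quantile normalization (0.94). GGPPS1 reached the minimum level of 10 only in WLc, where it is high, as did 1 uncalled gene of the list, and without these 1 of 5 was called. GGPPS12 (AT4G38460), a subunit without synthase activity of its own, was at 426, 460 and 563, a difference of 0.40 [0.30, 0.51] in WLc. The isomerases that interconvert IPP and DMAPP had lower levels in WLc than in D. IPI2 was at 2634, 2751 and 1700, a difference of −0.63 [−0.68, −0.58], and IPI1, given beside it although outside the rule for naming, was at 410, 396 and 297.

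The cytosolic mevalonate pathway makes IPP from acetyl-CoA for sterols. None of its 12 genes was called in R1h, beside 3.89% higher and 2.46% lower of the genes tested, and their median was −0.018. In WLc against D, 9 of 12 were below 0, where 51.3% of all genes tested were above 0. That count changed with the scaling. FPS2 turned above 0 with reference gene scaling (0.15), SQS1 below 0 with equal totals (−0.018) and MVD2 below 0 with quantile normalization (−0.158). The median was −0.591, and it was −0.327 with reference gene scaling. HMGR1, the main HMG-CoA reductase, was at 14190, 11030 and 8108 in D, R1h and WLc, a difference of −0.36 in R1h and −0.81 [−0.83, −0.79] in WLc. AACT2, the thiolase of the first step, was at 4652, 4493 and 2607. The 1 of 12 genes called lower in WLc against D, beside 10.7% of the genes tested, was HMGR2, at 96.0, 69.3 and 44.0, a difference of −1.11 [−1.43, −0.83] that was −0.85 with reference gene scaling. The MEP genes and the mevalonate genes thus had medians of opposite sign in WLc against D, under each scaling tried.

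The plastid users of GGPP and of the related prenyl diphosphates had more called genes than the MEP pathway in R1h. Of 10 tested, 3 were called higher in R1h, beside 3.89% of the genes tested, and 7 in WLc against D, beside 13.9%, with medians of 0.33 and 1.49. PSY, the first enzyme of carotenoid synthesis, was at 184, 528 and 1055 in D, R1h and WLc, differences of 1.51 [1.38, 1.66] and 2.51 [2.39, 2.65]. SPS2, a solanesyl diphosphate synthase for the plastoquinone side chain, was at 76.7, 477 and 570, and differed from D by 2.62 and 2.88. SPS1, its relative, was at 108, 623 and 329, so that it was highest in R1h. HST, VTE2 and VTE5, enzymes of plastoquinone, tocopherol and phytol use, were called higher in WLc against D and not in R1h against D, at 1022, 103 and 285 against 353, 35.5 and 129 in D. In WLc against R1h, 3 of the 10 were called higher, beside 12.0% of the genes tested. They were VTE2 by 1.47 [1.18, 1.82], HST by 1.28 [1.19, 1.38] and VTE5 by 1.17 [1.00, 1.35]. SPS1 was lower in WLc than in R1h, by −0.92 [−1.035, −0.812]. These intervals cover counting error only, and no test over libraries was possible.

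The supply of substrates and cofactors was mixed. Of 13 genes for plastid pyruvate, triose phosphate and thiamin, none was called in R1h, beside 3.89% higher and 2.46% lower of the genes tested. In WLc against D, 5 were called higher, beside 13.9% of the genes tested. The medians were 0.08 in R1h (−0.083 with reference gene scaling) and 0.85 in WLc. THI1, which makes the thiazole part of the thiamin cofactor that DXS needs, was at 1050, 1615 and 28410 in D, R1h and WLc, a WLc difference of 4.76 [4.71, 4.81]. TPT, the triose phosphate translocator of the chloroplast envelope, was at 497, 712 and 3457. PPT2, a phosphoenolpyruvate translocator, was at 0.637 in D, about 2 reads, and 97.3 in WLc, a ratio of 153 [40.3, 1220]. PPT2 reached the minimum level of 10 only in WLc, and without it 4 of 12 were called and the WLc median was 0.62. PKPB2, a plastid pyruvate kinase subunit, was at 22.3 in D and 22.2 in R1h and differed by 1.97 [1.63, 2.43] in WLc against D, whereas the subunit PKPB1 was at 4729, 3965 and 4815.

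HDS and HDR take electrons from ferredoxin and carry iron-sulfur clusters. Of 16 genes for ferredoxins, ferredoxin-NADP reductases (FNR) and plastid iron-sulfur assembly, 2 were called higher in R1h, beside 3.89% of the genes tested. They were FD1, at 963, 2385 and 1524, and FD2, at 3853, 8405 and 18330, the latter just under 2-fold with reference gene scaling (0.97). In WLc against D, 5 were called higher and 1 lower, beside 13.9% and 10.7% of the genes tested. The list medians were 0.22 in R1h and 0.52 in WLc. The leaf reductases FNR1 and FNR2 were at 498 and 1892 in D and at 3371 and 11740 in WLc, and the scaffold gene NFU3 was at 57.5 and 196. The root reductase RFNR1 was the gene called lower, from 377 to 169, with a difference of −1.16 that was −0.89 with reference gene scaling. FD1 and FD2 were called in R1h, where HDS and HDR were within 0.2 of D on the log2 scale. In WLc against D, FD2 was called as well (2.25), and FD1 was not (0.66).

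**Figure D4:**
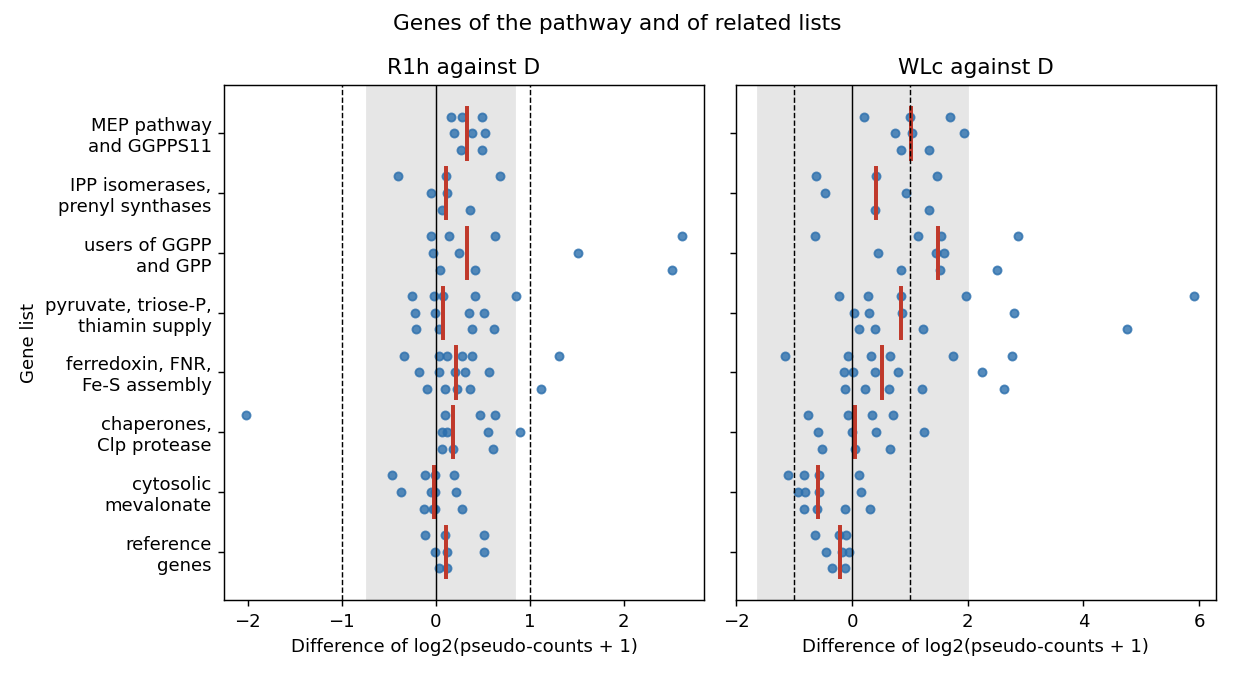
Difference of log2(pseudo-counts + 1) in R1h against D and WLc against D for each gene (point) of the pathway and of 7 related lists, with the median of each list as a red bar, dashed lines at 2-fold and a gray band over the middle 90% of genes tested. The MEP pathway and the users of GGPP have the highest medians in WLc, at 1.02 and 1.49, and the mevalonate pathway has the lowest, at −0.591.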

How the data were processed

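The 9 libraries were grouped by their titles into D, R1h and WLc. The authors aligned single-end 50-base reads with Bowtie to TAIR9 transcripts, counted unique reads in the last 500 bases of the coding strand, and adjusted the counts to a common library size with edgeR. Software versions of that step: not given in the sources used here. As deposited by the authors, the signal is in edgeR pseudo-counts with 1 column per group. The lowest values of each column lay on 3 steps, such as 0.311, 0.333 and 0.351 in D, which are the worth of 1 read in each of 3 libraries after averaging, and their mean gave the reads behind a level. Values below 1e-06 were read as 0.

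Differences of log2(value + 1) and calls at 2-fold were computed for genes with a level of at least 10 in 1 or more groups, with Python 3.11.15, pandas 2.3.3, numpy 2.4.6, scipy 1.17.1 and matplotlib 3.10.9. Calls and intervals were tested on simulated reads that held counting error only, so their behavior under a spread between libraries was not checked. Tests over libraries could not be run on group values. Gene names were matched by locus code to RefSeq on assembly TAIR10.1 (17628 of 17680 found), and transcript windows were taken from it. No coordinate or sequence is given because that is not the build of the files, and promoter motifs were not analysed here. The members, the lists and the rule for named genes were chosen with earlier results of these data known. The rule named the 8 members, DXS2, DXS3, up to 4 called genes per list and comparison with the largest difference (or up to 2 with the highest mean level where none was called), the reference genes, the markers, and the 5 genes nearest to DXS1 and to GGPPS11. Alternatives were other pseudocounts, scalings, filters and thresholds. The shares of the way from D to WLc under other scalings, and lists without genes that reached the minimum in 1 group only, were added after seeing the data.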

Additional observations from a re-analysis of the deposited data

How the results depend on the processing

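No paired analysis was possible because the columns hold 1 value per group and carry no replicate numbers, and leaving out a replicate was not possible for the same reason. Of the members, 5 were called higher in WLc against D, and 3 when columns were scaled to the same total and 3 when a call required all of the counting interval to exceed 2-fold. With log2(value + 5), DXR was under 2-fold, and with reference gene scaling or a 1.5-fold threshold 7 members were called, all but GGPPS11. All genes called higher in WLc against D numbered 2412, or 13.9% of those tested. They numbered 2093 with columns scaled to the same total, 2125 with log2(value + 5) and 3377 with reference gene scaling. The median of the 8 members ranged from 0.18 to 0.34 in R1h against D, from 0.89 to 1.29 in WLc against D and from 0.57 to 1.06 in WLc against R1h. At 1.5-fold, all genes called numbered 2899 in R1h against D (1099 at 2-fold), 7528 in WLc against D (4258) and 7102 in WLc against R1h (3811), and called genes of the related lists numbered 13 (6), 40 (22) and 33 (17). With the whole interval beyond 2-fold, 662 genes were called in R1h against D. Of the genes called in R1h against D, WLc against D and WLc against R1h, 61.2%, 56.6% and 54.5% were higher, against 45.5%, 72.2% and 78.9% with reference gene scaling. No called value changed direction among the members. The scalings moved the median of all genes tested by at most 0.42, so a 2-fold difference could hardly turn, and this is no check of the calls. The depth limits MCT and CMK most, and what separate plants would add to any interval is unknown.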

Other observations

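The level of active DXS protein is also set by chaperones and by the Clp protease of the plastid stroma, which refold or degrade it. Of 11 genes for these proteins, 1 was called lower in R1h against D, where 2.46% of the genes tested were called lower, and 1 was called higher in WLc against D, where 13.9% were called higher. J20, the co-chaperone that delivers inactive DXS to Hsp70, was at 251 in D, 61.2 in R1h and 334 in WLc. Its R1h level was thus far below both others, with log2 differences of −2.02 [−2.28, −1.81] from D and of 2.43 [2.23, 2.69] between WLc and R1h. CLPB3, an unfolding chaperone, was at 161, 238 and 385, a WLc difference from D of 1.25 [1.10, 1.41]. CPN60B1, a chaperonin subunit, was highest in R1h, at 6554, 9994 and 3886, and was called lower in WLc against R1h (−1.36, or −0.94 with reference gene scaling). The median of the list was 0.18 in R1h against D and 0.05 in WLc against D, which were 0.02 and 0.32 with reference gene scaling, and the WLc median was −0.080 with columns scaled to the same total. J20 and DXS1 had differences of opposite sign in R1h against D. J20 was the only gene of the list below 0 there on the deposited scale. The other 10 of the 11 were above 0, as DXS1 was. With reference gene scaling CLPC1 (−0.04), CLPC2 (−0.09), CLPR2 (−0.095) and CLPR4 (−0.058), named here although outside the rule, turned below 0. DXS1 was at 0.33 or more under each scaling.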
